A study of Rattus norvegicus with 3 samples.

Results

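The thymocytes described here carried the label Mature CD4-1 in the authors' deposited annotation of a single-cell RNA library of Lewis rat thymocytes. The label was read from the projected label of each cell, or from its cluster where no projected label was given. It was held by 121 of 8546 annotated cells, 1.42% of the library (exact binomial 95% interval 1.18 to 1.69%), and by 10.3% of the cells labelled past the DP-sig stage. All 121 cells took the name from the projection, and 120 of them lay in the authors' cluster named Mature SP and 1 in Early SP. Thymi came from 8-week-old Lewis rats with no treatment or altered gene named in the labels, and were digested with collagenase D and DNase I. The labelled groups of 1 thymocyte library were compared, and 1 Stereo-seq section of a rat thymus gave positions. The labels do not say how many animals went into the library.

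Late single-positive thymocytes complete their maturation in the thymic medulla and then leave through blood vessels towards the sphingosine-1-phosphate of the plasma. The receptor S1pr1 reads this lipid, the transcription factor Klf2 switches on S1pr1, and the activation antigen Cd69 can draw S1pr1 off the cell surface. CD4 lineage cells keep the coreceptor Cd4, which binds MHC class II, and shut off the Cd8a and Cd8b chains.

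For comparison, 3 groups of the same library were used: 236 cells labelled Immature CD4-1 or Immature CD4-2, 118 cells labelled Mature CD8-1 or Mature CD8-2, and 127 cells labelled Mature CD4-2. The Mature CD4-1 cells held 1016042 unique molecular identifiers (UMIs, single captured transcripts), with 2628 to 17739 and a median of 7964 per cell. Median depth was 6398 UMIs in the Immature CD4 cells, 11026 in the Mature CD8 cells and 9553 in Mature CD4-2. Of 38 barcodes shared with the stromal library of 16160 barcodes, 0 were Mature CD4-1 cells. With 1 library there was no replicate, so no test was run, and every interval below covers counting error only. The labels were themselves assigned from the expression of these cells, so differences between labels are descriptions of the labelled groups.

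Some labels stood apart from their names. The 27 cells labelled Mature CD8-2 had a UMI of Cd4 in 66.7% of cells and of Cd8a in 33.3%, and their level of the cell-cycle gene Pcna, 283 counts per 1000000 UMIs (CPM), was above the 33.8 CPM of Mature CD8-1. Ratios to Mature CD8-1 alone are therefore given beside those to both labels for the genes the comparison turns on. In Mature CD4-2, 34.6% of cells (44 cells) held a UMI of Rag1, Dntt or Ptcra, genes of the double-positive and earlier stages. The share was 7.44% (9 cells) in Mature CD4-1. The ribosomal protein genes took 29.7% of UMIs in Mature CD4-1, 18.8% in Immature CD4-1, 22.1% in Immature CD4-2, 24.7% in Mature CD4-2 and 31.4% in Mature CD8-1.

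Of the 3 marker genes given for the label, S1pr1 and Klf2 were highest in Mature CD4-1, while Cd4 took a middle place. S1pr1 stood at 219 CPM in Mature CD4-1 (exact Poisson interval 192 to 250.3), 161 in Mature CD8-1, 152 in Mature CD4-2, 76.1 in Pre-Treg, 44.1 in Immature CD4-2, 29.0 in Mature CD8-2 and 2.61 in Immature CD4-1. The double-positive cells labelled DP had 1.32 CPM. Mature CD4-1 was the highest of the 17 labels with at least 50 cells, and its ratio to the next, Mature CD8-1, was 1.36 (1.10 to 1.68). Among the other named labels the levels of Mature CD8-1 and Mature CD4-2 lay close together, well above those of the immature cells.

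Klf2 too was highest in Mature CD4-1, in another order below it, with 481 CPM in Mature CD4-1, 358 in Pre-Treg, 348 in Mature CD4-2, 299.6 in Mature CD8-1 and 188 in Mature CD8-2. Its level was 95.6 CPM in Immature CD4-2, 39.1 in Immature CD4-1 and 17.7 in DP, and the ratio of Mature CD4-1 to Pre-Treg was 1.34 (1.12 to 1.62).

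Cd4 had 219 CPM in Mature CD4-1, 314 in Mature CD4-2, 242 in Immature CD4-1, 369 in Immature CD4-2, 188 in Mature CD8-2, 67.5 in Mature CD8-1 and 1350.1 in DP. Mature CD4-1 ranked 9 of the 17 labels for Cd4, and the interval of its ratio to the neighbouring Immature CD4-1 held 1. The 3 marker genes did not share an order: S1pr1 and Klf2 separated Mature CD4-1 from the immature cells, and Cd4 separated it from Mature CD8-1.

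**Figure D1:**
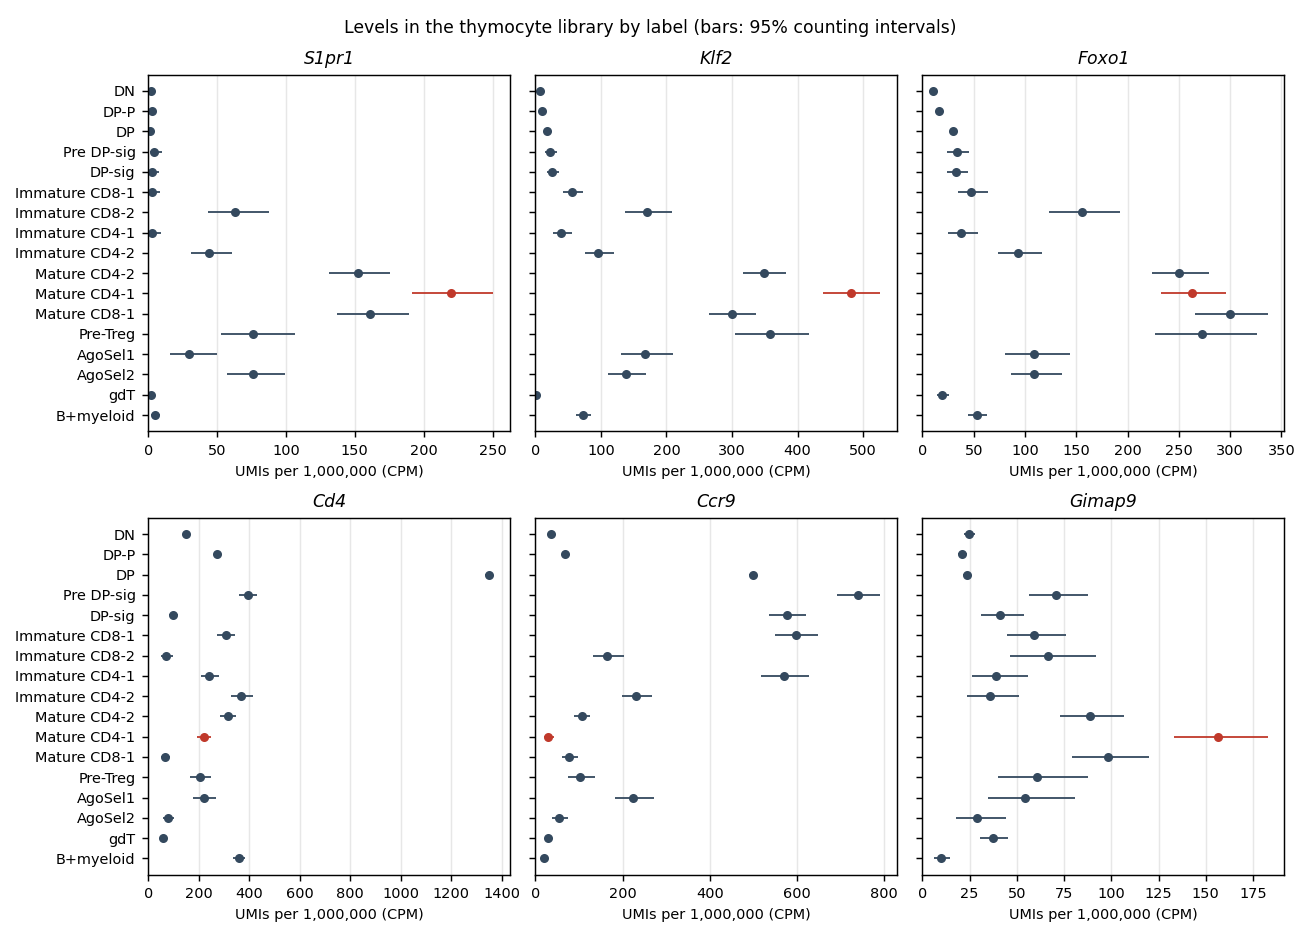
Levels of 6 genes in CPM (horizontal axes, linear) for the 17 labels of the thymocyte library with at least 50 cells, with 95% counting intervals as bars and Mature CD4-1 in red. S1pr1, Klf2 and Gimap9 were highest in Mature CD4-1, Foxo1 stood at 263 CPM there and at 299.6 in Mature CD8-1, Cd4 was highest in DP at 1350.1 CPM, and Ccr9 was 29.5 CPM in Mature CD4-1 against 571 in Immature CD4-1.

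Shares of cells with a UMI kept the gap between Mature CD4-1 and the immature labels and depended on depth. S1pr1 was seen in 76.0% of Mature CD4-1 cells, 66.9% of Mature CD4-2, 69.2% of Mature CD8-1, 16.5% of Immature CD4-2 and 1.504% of Immature CD4-1. As a background from a stage that should lack the transcript, the cells labelled DP-P had a UMI in 2.95% at a median of 15439 UMIs per cell, which is deeper than Mature CD4-1. With every cell thinned to 1000 UMIs, S1pr1 was seen in 20.7% of Mature CD4-1, 18.1% of Mature CD4-2, 19.8% of Mature CD8-1, 1.94% of Immature CD4-2 and 0.118% of DP-P. At equal depth Mature CD4-1, Mature CD4-2 and Mature CD8-1 lay within 3 percentage points of one another, and their intervals overlapped. The S1pr1 lead of Mature CD4-1 was therefore not resolved in these shares. The immature labels and DP-P lay far below. The cells labelled Mature CD8-2 stood apart from the other mature labels, with S1pr1 in 1 of 27 thinned cells (3.70%, 0.0937 to 19.0%).

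The unthinned share with a Klf2 UMI was 82.6% in Mature CD4-1, 74.0% in Mature CD4-2, 33.0% in Immature CD4-2, 12.03% in Immature CD4-1 and 11.8% in DP-P. After thinning to 1000 UMIs these Klf2 shares were 34.7, 29.9, 5.83, 1.504 and 1.18%. For Klf2 the thinned Immature CD4-1 value lay near the DP-P background. Within Mature CD4-1, the median cell had 3 UMIs of Klf2, 1 of S1pr1 and 1 of Cd4, so that a missing S1pr1 or Cd4 UMI in a single cell cannot be read as absence.

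Promoters of this gene group are shown because Klf2 belongs to a family of zinc-finger factors known to bind the letters CACCC. Of the 15 genes in the egress and homing list, 8 had an entry in the RefSeq promoter table (build GRCr8), while Klf2 and Cd4 had none. The 250 bases before the start of S1pr1 and of Itgb7, the integrin beta-7 chain of gut homing, are printed 5′ to 3′ on the gene's strand, with CACCC in capitals. S1pr1 lies on the minus strand at chr2:206314071-206314320, and Itgb7 on the minus strand at chr7:135239072-135239321.
S1pr1: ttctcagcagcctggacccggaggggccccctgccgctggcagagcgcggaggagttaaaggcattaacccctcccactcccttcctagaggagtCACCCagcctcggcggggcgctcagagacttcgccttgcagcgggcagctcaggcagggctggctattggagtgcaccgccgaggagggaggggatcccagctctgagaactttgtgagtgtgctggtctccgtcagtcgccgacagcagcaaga
Itgb7: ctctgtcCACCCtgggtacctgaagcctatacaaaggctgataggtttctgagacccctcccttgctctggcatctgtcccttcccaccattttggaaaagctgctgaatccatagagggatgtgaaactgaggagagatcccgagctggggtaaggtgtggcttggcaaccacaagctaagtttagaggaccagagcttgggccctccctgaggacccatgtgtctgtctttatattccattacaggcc
Each window held CACCC 1 time on the given strand and 0 times on the other (as GGGTG). The letters are common: 13569 of 27457 promoters of that length (49.4%) held them on either strand, so the match describes these windows and does not mark a site.

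Against the Immature CD4 cells, the Mature CD4-1 cells had higher levels of the exit genes S1pr1 and Klf2 and of GIMAP genes, and lower levels of most measured genes of the selection response and of the chemokine receptor Ccr9. S1pr1 was 9.14-fold higher (6.46 to 13.3; 219 against 24.0 CPM) and Klf2 7.06-fold (5.72 to 8.77; 481 against 68.2 CPM). Cd4 was lower, at a ratio of 0.714 (0.606 to 0.838). The S1pr1 value depended on which immature cells were used. It was 4.97 (3.49 to 7.28) against Immature CD4-2 alone and 84.2 (23.0 to 699.7) against Immature CD4-1 alone, where 2 UMIs were counted. Of the 38 S1pr1 UMIs in the Immature CD4 cells, 11 came from 1 cell. Leaving out cells with UMIs of 2 or more B cell, myeloid or stromal genes gave 18.2 for S1pr1. This took out 27 Mature CD4-1, 10 Immature CD4-1 and 15 Immature CD4-2 cells. The part of each side in the shift was not tested. Of the 27 Mature CD4-1 cells 22 held Cd79a or Fcrla, genes of the B cell list that are described further on.

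Across 6054 genes with at least 50 UMIs in both groups together, 143 were at least 2-fold higher in Mature CD4-1 (2.36% of genes compared) and 469 at least 2-fold lower (7.75%). The median log2 ratio of all genes was -0.31. With the groups scaled so that this median was 0, the counts were 260 higher and 210 lower, so the excess of lower genes rested on the scaling, whereas each ratio named here moved by the same factor. The list counts against both Immature CD4 labels together are to be read beside 2.36% and 7.75%. Some genes stand on more than 1 list and are counted in each, so the lists are not separate lines of evidence.

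In the egress and homing list, 6 of 14 measured genes were at least 2-fold higher and 3 at least 2-fold lower, with a median log2 ratio of 0.47. Thinned to 1000 UMIs per cell, 5 of these genes were measured, 1 higher and 2 lower, with a median of -0.65. Besides S1pr1 and Klf2, the higher genes were Foxo1, a transcription factor upstream of Klf2 and Il7r (263 CPM in Mature CD4-1, 93.2 in Immature CD4-2, 37.8 in Immature CD4-1; ratio 3.96, 3.15 to 5.01), and S1pr4, another receptor of the same lipid (2.80, 1.83 to 4.37). Ccr7, the chemokine receptor that guides cells into the medulla and into lymph nodes, was 2.67-fold higher (1.73 to 4.18), and Itgb7 2.29-fold (1.64 to 3.21). The homing group was thus represented by lipid receptors, an integrin chain and a chemokine receptor together with 2 transcription factors.

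Lower in the same list was Ccr9, the receptor of the thymic and gut chemokine Ccl25, with 29.5 CPM in Mature CD4-1, 232 in Immature CD4-2 and 571 in Immature CD4-1. Ccr9 was 13.4-fold lower (9.30 to 20.05) and was seen in 8.26% of Mature CD4-1 cells against 84.96% of Immature CD4-1. Itgal, the alpha chain of the integrin LFA-1, was 2.61-fold lower, and Ccr4, a chemokine receptor of newly selected CD4 cells, 2.81-fold lower. Cd69 differed less, with 100.4 CPM in Mature CD4-1 against 155 in Immature CD4-1 and 142 in Immature CD4-2.

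Of 17 measured genes known to be high in mature single-positive thymocytes, 7 were at least 2-fold higher and 0 lower, with a median log2 ratio of 0.73. S1pr1 and Klf2, counted in the egress and homing list too, were among the 7. Also among them was the MHC class I light chain B2m, at 3514 CPM in Mature CD4-1, 2150.03 in Immature CD4-2 and 1125 in Immature CD4-1 (ratio 2.13, 2.02 to 2.24). The class I heavy chain genes RT1-A1 (3.09-fold) and RT1-A2 (2.48-fold) followed, although these belong to a multigene family whose counts are uncertain. Emp3, a membrane protein, was 3.80-fold higher (3.21 to 4.52), and Tnfrsf1b, a TNF receptor, 5.10-fold (3.13 to 8.64). The class I genes and the TNF receptor were at or near their Mature CD4-1 levels in Mature CD4-2 and Mature CD8-1 too: B2m had 3336 and 3544 CPM there.

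The GIMAP GTPases, proteins that support the survival of resting lymphocytes, formed another higher group, with 3 of 7 genes at least 2-fold higher, 0 lower and a median log2 ratio of 0.98. Gimap9 had 156 CPM in Mature CD4-1 against 39.1 and 35.6 in Immature CD4-1 and Immature CD4-2 (4.20-fold, 3.10 to 5.76), and Gimap4 had 239 against 56.0 and 71.1 (3.75-fold, 2.96 to 4.78). Gimap5 was 2.14-fold higher and Gimap7 1.97-fold, and the remaining 3 lay between 1.32-fold and 1.495-fold. The GIMAP genes are neighbours of similar sequence, so single members may share reads.

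The survival and quiescence list was mixed, with 3 of 15 genes higher, 2 lower and a median log2 ratio of 0.16. Its higher members were Klf2, Foxo1 and Tsc22d3, the glucocorticoid-induced leucine zipper, which was 9.35-fold higher (6.04 to 15.1). Il7r, the receptor chain for interleukin-7, was 1.79-fold higher (1.52 to 2.10), but the immature labels differed: the ratio was 1.15 (0.969 to 1.36) to Immature CD4-2 alone, an interval that held 1, and 4.399 (3.31 to 5.93) to Immature CD4-1 alone. Bcl2, the survival protein, was lower, at a ratio of 0.658 (0.582 to 0.742). Its relative Bcl2l1 was 3.39-fold lower, and Bcl2l11, which codes for the death-promoting protein Bim, 2.20-fold lower (1.19 to 4.32). Members on both sides of cell survival were therefore lower.

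Many genes of recently selected cells were lower. In the immaturity list 0 of 14 were at least 2-fold higher and 8 lower (median log2 ratio -1.23), and in the list of the immediate selection response 0 of 10 were higher and 8 lower (median -1.89). Itm2a and Nab2 were among the lower genes of both lists. Nr4a1, an orphan nuclear receptor switched on early in T cell receptor signalling, had 23.6 CPM in Mature CD4-1, 217 in Immature CD4-2 and 244 in Immature CD4-1, a 9.73-fold difference (6.44 to 15.4). Itm2a, a membrane protein induced at positive selection, was 6.04-fold lower (5.08 to 7.22; 141 CPM against 683 and 1027). The immediate-early factor Egr1 was 5.07-fold lower, the Egr partner Nab2 4.44-fold, the phosphatase Dusp2 3.88-fold and Nr4a3 3.53-fold.

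In the CD4 lineage list 0 of 11 genes were at least 2-fold higher and 3 lower, Tox, Gata3 and Myb. Tox and Myb were among the lower genes of the immaturity list too. Tox, an HMG-box factor needed for CD4 cells to form, had 652 CPM in Mature CD4-1, 1411 in Immature CD4-2 and 2574 in Immature CD4-1, and was 3.03-fold lower (2.79 to 3.30). Gata3, a zinc-finger factor of the CD4 lineage, was 4.34-fold lower (3.35 to 5.70) and Myb 2.60-fold. The chromatin organiser Satb1, of the immaturity list, was 2.13-fold lower. Zbtb7b, the factor ThPOK that fixes the CD4 fate, was low throughout, at 15.7 CPM in Mature CD4-1, 36.8 in Immature CD4-2, 18.2 in Immature CD4-1 and 6.33 in Mature CD8-1, and the interval of its ratio to the Immature CD4 cells, 0.298 to 1.02, held 1. Cd40lg, the helper ligand of CD40, was 1.37-fold higher (1.10 to 1.70).

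In other lists fewer genes were 2-fold apart. In the receptor complex list 0 of 14 genes were at least 2-fold higher and 1, the adaptor Lcp2, was lower at 2.08-fold, with a median log2 ratio of -0.49 that became -0.18 after median scaling. In the interferon list 1 of 9 was higher, Mx1, an antiviral GTPase, at 9.18-fold (5.54 to 16.1; 104 CPM against 18.4 in Immature CD4-2 and 3.91 in Immature CD4-1). Against Immature CD4-1 alone 4 of 7 interferon genes were higher, where 177 of all 4871 genes were. The NF-kappaB and TNF response list had 0 of 8 higher and 2 lower, with a median log2 ratio of -0.55, and its direction depended on the immature label. It had 0 of 8 higher and 4 lower against Immature CD4-2 alone (median -1.005), and 1 of 5 higher and 0 lower against Immature CD4-1 alone (median 0.43). Of all 4919 genes against Immature CD4-2 alone, 96 were higher and 245 lower. Of all 4871 genes against Immature CD4-1 alone, 177 were higher and 429 lower. Thinning left 2 of its genes, with a median of 0.35. The list of stress and handling genes, which tissue digestion can raise, had 0 of 8 higher and 1 lower, Junb at 2.07-fold, and its part in these differences was not tested.

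The genes with the widest ratios added members outside these lists. The 10 highest, limited to genes seen in at least 20% of Mature CD4-1 cells, were led by Sytl1, a synaptotagmin-like vesicle protein (19.5-fold, 7.15 to 74.3; 50 against 4 UMIs), and Rasa3, a GTPase-activating protein for Ras and Rap (15.9-fold, 9.34 to 29.1). Both ratios rest on few UMIs in the immature cells. Against Immature CD4-2 alone they were 13.4 for Sytl1 and 8.19 for Rasa3, and against Immature CD4-1 alone 37.8 (1 UMI there; 6.47 to 1521) and 38.5. After thinning, Sytl1 was counted with 4 against 0 UMIs, at least 2.60-fold higher with the 0 set at 3 UMIs over the group. Scml4, a relative of the polycomb proteins, was 12.7-fold higher (9.49 to 17.4) and was seen in 78.5% of Mature CD4-1 cells against 11.02% of Immature CD4 cells. Calhm6, a calcium homeostasis modulator, was 9.85-fold higher (6.59 to 15.2), and 5.47-fold against Immature CD4-2 alone. It was 39.6-fold higher without the cells with UMIs of 2 or more B cell, myeloid or stromal genes. Tsc22d3 was among the 10, and the rest were Ms4a4c, Ms4a6bl1, Ms4a6c, RT1-T24-3 and Klrk1, at 9.45-fold to 14.4-fold, from gene families with close copies in which reads can be shared.

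The 10 lowest were led by Tox2, an HMG-box relative of Tox, at 28.8-fold lower (13.0 to 79.1; 58.1% of Immature CD4 cells against 4.13%), and Cep112, a centrosomal protein, at 24.7-fold (14.0 to 48.2). Ccr9, Hivep3, Adam12, Ccr8, Angpt1, Nr4a1, Nr4a2 and Ccl4 followed, at 8.21-fold to 13.4-fold lower. This set held receptors and ligands of the chemokine system (Ccr8, Ccr9, Ccl4) and nuclear receptors of the Nr4a family.

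**Figure D2:**
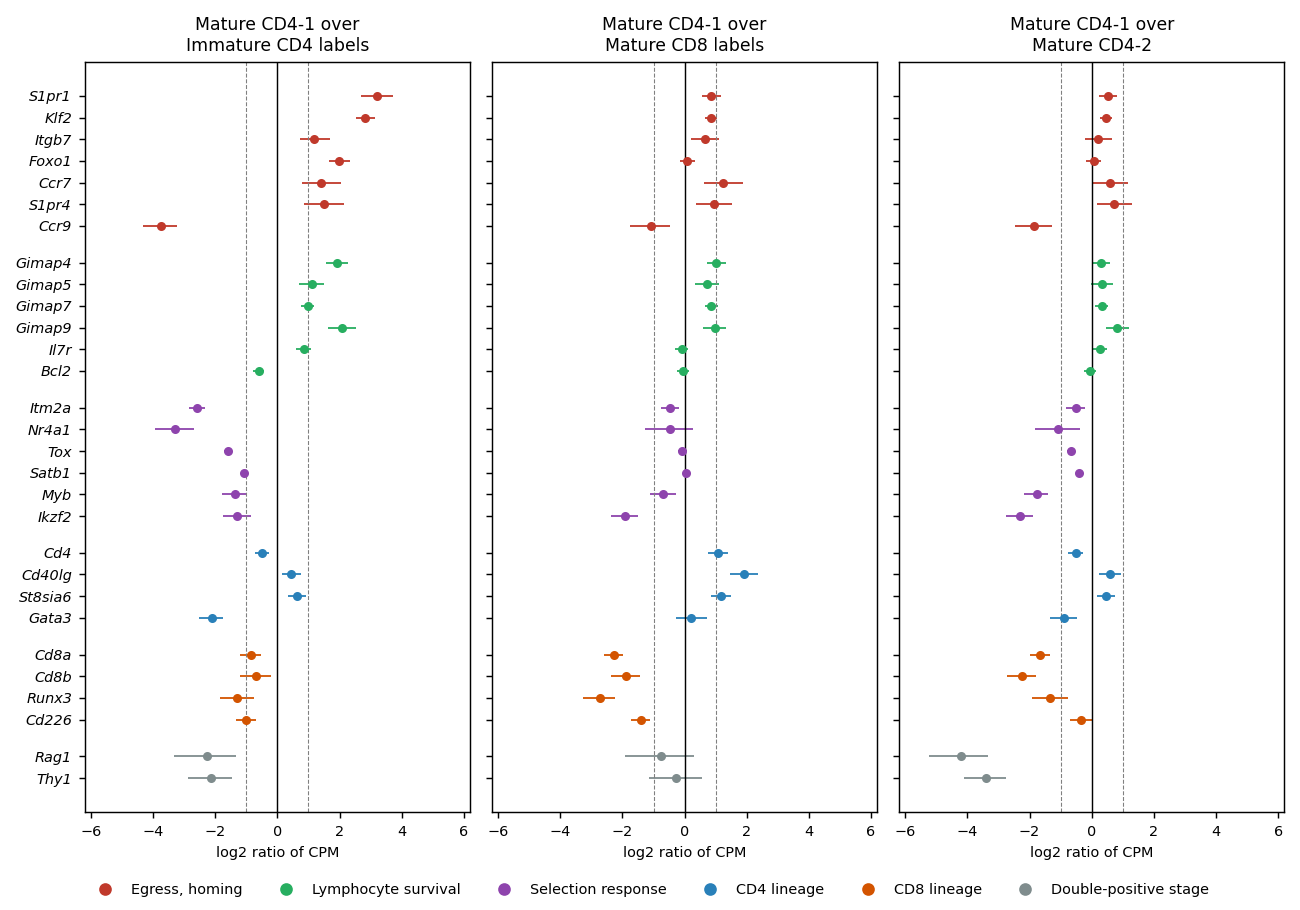
Log2 ratio of CPM (horizontal axis) of Mature CD4-1 to each of 3 groups for 29 genes chosen from the lists, coloured by role, with 95% counting intervals and dashed lines at 2-fold. S1pr1 and Klf2 lay far to the right against the Immature CD4 cells (9.14-fold and 7.06-fold), close to the middle against Mature CD4-2, and Cd8a, Cd8b and Runx3 lay to the left in all 3 panels.

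Against the Mature CD8 cells the Mature CD4-1 cells differed in lineage genes. In the late maturation list 0 of 17 genes were 2-fold apart, a count near the share of all genes (0.721% higher, 2.07% lower). Runx3, the factor that sets the CD8 programme, had 35.4 CPM in Mature CD4-1 and 307 in Mature CD8-1, and was 6.65-fold lower than in both CD8 labels (4.70 to 9.67). Cd8a was 4.85-fold lower (3.91 to 6.07; 95.5 CPM against 585 in Mature CD8-1), Cd8b 3.68-fold (2.68 to 5.15) and Cd226, an adhesion receptor of cytotoxic cells, 2.66-fold (2.15 to 3.31). Against Mature CD8-1 alone the ratios were 0.115 for Runx3, 0.163 for Cd8a, 0.199 for Cd8b and 0.313 for Cd226, further from 1 in each. Cd40lg was 3.76-fold higher (2.75 to 5.19): it had 155 CPM in Mature CD4-1, 8.44 in Mature CD8-1 and 116 in the cells labelled Mature CD8-2, and its ratio to Mature CD8-1 alone was 18.3 (9.07 to 43.2). Cd4 was 2.10-fold higher (1.70 to 2.62) than in both labels and 3.25-fold higher than in Mature CD8-1 alone.

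Of 5548 genes compared, 40 were at least 2-fold higher (0.721%) and 115 at least 2-fold lower (2.07%), with a median log2 ratio of -0.04. Against Mature CD8-1 alone the counts were 49 and 56 of 4838 genes. The CD8 lineage list had 0 of 6 higher and 4 lower (median log2 ratio -1.64), and the CD4 lineage list had 3 of 10 higher, Cd4, Cd40lg and the sialyltransferase St8sia6 (2.24-fold, 1.79 to 2.81; 3.53-fold against Mature CD8-1 alone), and 0 lower. Both lists are built from genes that define the lineages, so their direction follows from the labels.

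As in the late maturation list, 0 of 12 survival genes and 0 of 14 receptor complex genes were 2-fold apart. With 0.721% of all genes higher and 2.07% lower, these counts do not set the lists apart from other genes. B2m stood at a ratio of 1.05 and Il7r at 0.939. Foxo1 stood at 1.07 (0.904 to 1.25), and at 0.877 (0.739 to 1.04) to Mature CD8-1 alone, on the other side of 1 with both intervals holding 1. S1pr1 was 1.81-fold higher (1.47 to 2.23) and Klf2 1.81-fold (1.58 to 2.08). Against Mature CD8-1 alone these were 1.36-fold and 1.61-fold.

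Guidance receptors differed somewhat more. In the egress and homing list 2 of 13 were higher, Ccr7 (2.37-fold, 1.53 to 3.72) and Gpr183, the oxysterol receptor that positions lymphocytes (2.33-fold), and 1 was lower, Ccr9 (2.14-fold). Ratios to Mature CD8-1 alone were 2.43 for Ccr7, 4.59 for Gpr183 and 0.378 for Ccr9. Gpr183 had 58.1 CPM in Mature CD4-1, 12.7 in Mature CD8-1 and 53.2 in the cells labelled Mature CD8-2. All 7 GIMAP genes were higher in Mature CD4-1 than in the CD8 cells by their point values (median log2 ratio 0.86), the interval of Gimap6 held 1, and 1 was past 2-fold, Gimap4 at 2.04-fold (1.66 to 2.50). Gimap9 stood at 1.96-fold. With Mature CD8-1 alone as the comparison, Gimap4 stood at 1.87-fold, short of 2-fold, and Gimap9 at 1.595-fold.

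The widest ratios to the Mature CD8 cells were led on the higher side by Cd79a, Cd40lg, Ubash3b, a phosphatase that damps T cell receptor signalling (3.63-fold, 2.24 to 6.06), and the growth factor receptor Igf1r (3.21-fold, 2.27 to 4.60). These 2 stood at 3.19 (1.89 to 5.64) and 2.55 (1.78 to 3.73) against Mature CD8-1 alone. Thinned to 1000 UMIs per cell, Ubash3b had 7 against 1 UMIs (6.83-fold, 0.877 to 307.7) and Igf1r 12 against 1 (11.7-fold, 1.73 to 500.3). Ten1, Pced1b, Sh2d3c, Ccr7, Tcp11l2 and Sphk1, the kinase that makes sphingosine-1-phosphate, followed at 2.33-fold to 2.75-fold. On the lower side stood genes of DNA replication and repair: Chek1, a checkpoint kinase, with 1 UMI against 51 (38.0-fold lower, 6.53 to 1532), Ung, a uracil DNA glycosylase, with 4 against 62 (11.6-fold, 4.30 to 43.8), and the DNA ligase Lig1 (6.71-fold, 3.59 to 13.9). These ratios are to both CD8 labels together, and their values against Mature CD8-1 alone are not given. Genes at least 2-fold lower numbered 115 against both labels and 56 against Mature CD8-1 alone. The cells labelled Mature CD8-2 had 1124 CPM of Stmn1 and 283 of Pcna against 128 and 33.8 in Mature CD8-1 and 166 and 40.4 in Mature CD4-1. In the proliferation list, 2 of 3 measured genes were lower against both CD8 labels and 0 of 3 against Mature CD8-1 alone. Cep112, Uchl1, Runx3, Cd44, Fabp5, Siva1 and Cd8a completed the 10.

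Against Mature CD4-2, the other mature CD4 label, most of the genes that were 2-fold apart were lower in Mature CD4-1. Of 5511 genes, 10 were at least 2-fold higher in Mature CD4-1 (0.181%) and 181 at least 2-fold lower (3.28%), with a median log2 ratio of -0.15. Without the cells holding a UMI of Rag1, Dntt or Ptcra, which left 112 Mature CD4-1 and 83 Mature CD4-2 cells, the counts were 10 and 40. The Cd4 ratio was 0.699 (0.590 to 0.825) over all cells and 1.01 under the same restriction, and the Klf2 ratio 1.38 (1.21 to 1.57) and 1.16. S1pr1 was 1.44-fold higher (1.18 to 1.76), Cd40lg 1.502-fold (1.18 to 1.91) and Gimap9 1.77-fold (1.38 to 2.27).

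In the list of double-positive stage genes, 4 of 6 measured genes were lower and 0 higher. Rag1, a subunit of the V(D)J recombinase, had 10.8 CPM in Mature CD4-1, 199 in Mature CD4-2 and 1952 in DP, an 18.4-fold difference (10.1 to 37.4). Thy1, a surface glycoprotein of rat thymocytes, had 20.7, 218 and 1824 CPM (10.6-fold, 6.78 to 17.4). Cd8a was 3.17-fold lower (2.53 to 4.01), Cd8b 4.76-fold (3.48 to 6.63), Runx3 2.52-fold, Ccr9 3.59-fold and Myb 3.43-fold. Rag1, Dntt and Ptcra are themselves on this list, so its counts without the cells that hold them fall by construction and are not given. Without those cells the ratio of Cd8b was 0.767 (0.479 to 1.23) and that of Myb 0.823 (0.525 to 1.29), intervals that held 1, whereas Runx3 (0.341) and Ccr9 (0.362) were still lower.

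Another set was lower with and without those cells. In the interferon list 3 of 13 genes were lower and 0 higher, and 3 of 11 were lower without those cells. Of all genes 181 of 5511 were lower, and 40 of 4298 without those cells. They were the ubiquitin-like protein Isg15 (30.5 CPM against 94.9 in Mature CD4-2, 3.11-fold), the Isg15 protease Usp18 (18.7 against 74.96 CPM, 4.01-fold) and the antiviral GTPase Mx2 (3.63-fold). The values in Mature CD8-1, 19.0 CPM for Isg15 and 19.0 for Usp18, lay near those of Mature CD4-1. Without the cells with Rag1, Dntt or Ptcra the ratios of Isg15, Usp18 and Mx2 were 0.229, 0.235 and 0.214. Ikzf2, the Helios factor of strongly selected cells, was 4.94-fold lower (3.69 to 6.71) over all cells, with a ratio of 0.197 without them.

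The widest ratios to Mature CD4-2 were Sytl1 (2.29-fold, 1.40 to 3.80), Nxt1, Lman1, Timm9, Pithd1, Patj, Ten1 and Kmt2b on the higher side, all at or below 2.29-fold. The lower side was led by Slc7a11, a cystine transporter (24.5-fold, 13.5 to 49.5), Rag1, Adam12, Csgalnact1 and Thy1, and went on with Spdl1, the inhibitory receptor Lag3 (9.61-fold, 4.46 to 24.6), Ctif, Plxdc2 and Ssx2ip. The ratios of Slc7a11 and Lag3 had intervals that held 1 without the Rag1, Dntt or Ptcra cells (3 against 6 UMIs and 5 against 8), and Adam12 and Thy1 turned direction, at 7 against 0 UMIs and 8 against 1. Late maturation genes (0 of 17), GIMAP genes (0 of 7) and receptor complex genes (0 of 14) were not 2-fold apart in either direction. With 0.181% of all genes higher and 3.28% lower, these counts do not set the lists apart from other genes.

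Single cells combined these transcripts unevenly. Of the Mature CD4-1 cells, 66.1% (exact binomial interval 57.0 to 74.5%) held Cd4 without Cd8a or Cd8b, 9.92% (12 cells) a Cd8 chain without Cd4, 8.26% (10 cells) both, and 15.7% (19 cells) none of these. The Cd4-only share was 40.2% in Mature CD4-2, 41.4% in Immature CD4-1, 63.1% in Immature CD4-2 and 12.1% in Mature CD8-1. Cells with both coreceptors made up 37.0% of Mature CD4-2. Mature CD4-1 thus had the highest Cd4-only share of these labels by point value, within the counting interval of Immature CD4-2, and the median depths of 7964 and 7312 UMIs were near each other.

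S1pr1 and Klf2 were seen together in 64.5% (78 cells; 55.2 to 73.0%) of Mature CD4-1 cells, 55.9% of Mature CD4-2, 54.9% of Mature CD8-1, 6.80% of Immature CD4-2 and 0.825% of DP-P. In Immature CD4-1 they were seen together in 0 of 133 cells, which allows a share of up to 2.74% by the exact interval. Neither was seen in 5.79% (7 cells) of Mature CD4-1 cells against 86.5% of Immature CD4-1 and 57.3% of Immature CD4-2. S1pr1 without Cd69 was found in 47.1% (57 cells), S1pr1 with Cd69 in 28.9% (35 cells) and Cd69 without S1pr1 in 9.92%. In Mature CD4-2 the first 2 of these shares were 27.6 and 39.4%. The 2 mature CD4 labels were therefore in opposite order for these combinations, at median depths of 7964 and 9553 UMIs.

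**Figure D3:**
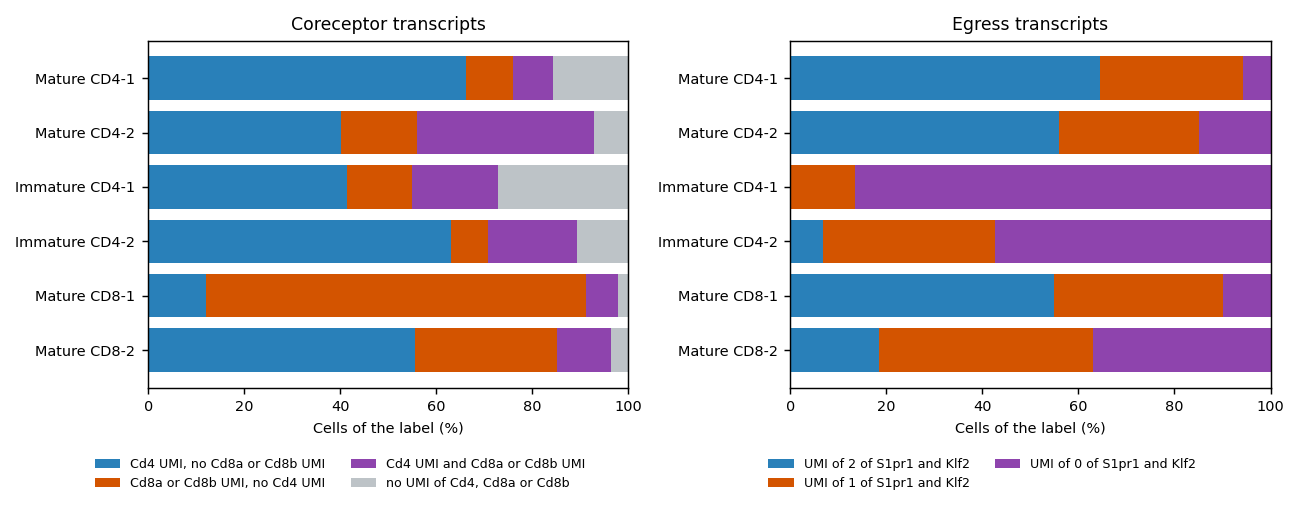
Share of cells (horizontal axis, percent of the cells of each label, not thinned) by coreceptor transcripts (left) and by how many of S1pr1 and Klf2 had a UMI (right) in 6 labels. Mature CD4-1 had 66.1% of cells with Cd4 alone and 64.5% with both egress transcripts, and Immature CD4-1 had 86.5% with neither.

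Few genes had their highest level in Mature CD4-1 by a wide margin. Of 2922 genes with at least 50 UMIs in its cells and a UMI in at least 20% of them, 110 were highest there among the 17 labels by point value. Of these, 2 were at least 1.5-fold over the next label and 0 at least 2-fold. The widest margins were those of Gimap9 (1.60-fold, 1.23 to 2.08), Calhm6 (1.501-fold, 1.18 to 1.92) and S1pr4 (1.48-fold, 1.01 to 2.17). S1pr1 and Klf2 were among the 15 leading genes, together with Sytl1, Ubash3b, Rasgrp2, an activator of the small GTPase Rap1 in lymphocyte adhesion (1.32-fold), and Ripor2, a regulator of RhoA and migration (1.31-fold, 1.17 to 1.46). Flot1, Cnih4, Rpl31l4, Treml2, Faah and Zdhhc18 completed the set. The intervals of Sytl1, Cnih4, Rpl31l4, Treml2, Ubash3b, Faah and Zdhhc18 to the next label held 1, so their first place lay within counting error. The Treg label, with 37 cells, was not among the 17 labels. Its summed GIMAP level was 1439 CPM, against 1318 in Mature CD4-1.

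Markers of other cells were mostly at or near 0. In Mature CD4-1, 4 of 9 B cell markers, 7 of 12 myeloid, 9 of 10 stromal and 4 of 4 erythroid genes had 0 UMIs, and the summed levels were 276, 46.3, 16.7 and 0 CPM. Among the B cell genes Cd79b and Ms4a1 were at 0. Nearly all of the B cell sum came from Cd79a and Fcrla. Cd79a, which codes for a signalling chain of the B cell receptor, stood at 145 CPM in Mature CD4-1, 163 in Mature CD4-2, 271 in Pre-Treg, 53.9 in Immature CD4-2, 31.6 in Mature CD8-1, 2.61 in Immature CD4-1 and 264 in the B+myeloid label. Cd79a was seen in 40.5% of Mature CD4-1 cells, whereas its partner chain Cd79b was in none. Cd79a was 5.05-fold higher (3.53 to 7.39) than in the Mature CD8 cells and 4.57-fold higher (3.07 to 7.02) than in Mature CD8-1 alone. Fcrla, an Fc receptor-like protein of B cells, stood at 128 CPM in Mature CD4-1, the highest of the 17 labels, against 112 in the B+myeloid label, 86.5 in Mature CD8-1, 65.4 in Mature CD4-2, 71.1 in Immature CD4-2 and 76.9 in Immature CD4-1. Its 130 UMIs came from 8 Mature CD4-1 cells (6.61%). The Treg label, with 37 cells and so not among the 17, had a summed B cell level of 638 CPM. Foxp3, the regulatory T cell factor, had 1 UMI in Mature CD4-1. The part of other cells' RNA in the ratios above was not tested. The values without cells with 2 or more B cell, myeloid or stromal genes cannot decide it. Of the 27 Mature CD4-1 cells left out there, 22 held Cd79a or Fcrla.

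In the section, Stereo-seq bins with sides of 10 µm had been given cell type labels by RCTD, a deconvolution that used the rat libraries and published mouse data as reference. A bin can hold parts of several cells, and the shares below are shares of bins whose first label was a thymocyte label. Mature CD4-1 was the first label of 2788 of 567272 such bins (0.491%), and 20.3% of these were marked confident. The second label was epithelial in 65.7% of the bins and absent in 21.6%. The median bin of the label held 477 UMIs, against 320.0 in all thymocyte bins, 465 in Mature CD4-2 bins and 460 in Mature CD8-1 bins. Within the medulla the label's bins had a median of 502 UMIs and all thymocyte bins 498.

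The label was concentrated in the medulla. It took 3.82% of medullary thymocyte bins (1857 bins), 0.209% of cortical bins (836) and 0.0801% of capsular bins, and 66.6% of its bins lay in the medulla. The share in the medulla was 18.3 times that in the cortex (16.9 to 19.8). Mature CD4-2 reached 15.3 (14.7 to 15.99) and Mature CD8-1 reached 13.9 (12.9 to 14.9). Mature CD8-2 had 9.65, Immature CD4-2 had 7.89 and Immature CD4-1 had 2.58. Mature CD4-1 had the widest ratio of these 6 labels in the main count. Intervals treat bins as independent although neighbouring bins share cells, and the regions were drawn by the authors from scores of the same section, so region and label are not independent. The regions differed in depth: the median thymocyte bin held 498 UMIs in the medulla, 304 in the cortex and 312 in the capsular region. Cortical bins given the Mature CD4-1 label held a median of 374.5 UMIs. The part of bin depth in the ratios between regions was not tested at equal depth.

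Its share was higher deeper in the medulla, with depth measured as the distance to the nearest position outside. Outside the medulla it was 0.0837% of thymocyte bins beyond 200 µm, 0.258% at 50 to 100 µm and 1.51% within 15 µm of the edge. Inside, it was 2.10% within 15 µm, 3.74% at 30 to 50 µm, 4.52% at 50 to 100 µm, 5.68% at 100 to 200 µm and 6.85% beyond 200 µm, where 17 of 248 bins give an interval of 4.04 to 10.7%. The median depth of its medullary bins was 63.2 µm, against 60.8 µm for Mature CD8-1, 56.6 for Mature CD4-2, 44.7 for Immature CD4-2 and 36.1 for Immature CD4-1. All medullary thymocyte bins had a median depth of 44.7 µm.

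**Figure D4:**
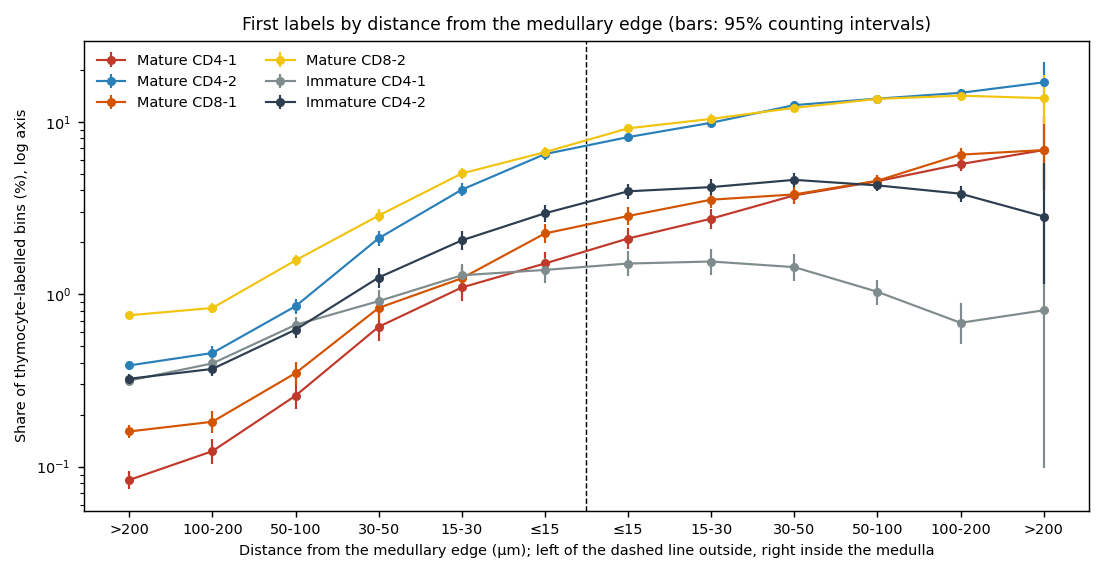
Share of thymocyte-labelled bins (vertical axis, percent, log scale) given each of 6 first labels, by distance from the medullary edge in µm (horizontal axis; outside on the left, inside on the right), with 95% counting intervals. Mature CD4-1 ran from 0.0837% far outside to 5.68% at 100 to 200 µm inside, whereas Immature CD4-1 was lower deep in the medulla than near its edge.

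Within the medulla the deposited table separates areas it names mECA and mEFA. These names are not spelled out in the labels, although the series title speaks of areas without epithelium. Mature CD4-1 took 4.62% of thymocyte bins in mEFA (820 bins; 4.31 to 4.94%) and 3.37% in mECA (1037 bins; 3.17 to 3.57%), a ratio of 1.37 (1.25 to 1.5005). The ratio was 1.19 for Mature CD8-1, 1.00 for Mature CD4-2, 0.912 for Mature CD8-2, 0.816 for Immature CD4-1 and 0.921 for Immature CD4-2. Of the bins with a mature CD4 label, the share that was Mature CD4-1 was 1.27 times as large in mEFA as in mECA.

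This ratio turned with depth. Within 15 µm of the edge the Mature CD4-1 share was lower in mEFA (0.567, 0.419 to 0.767), at 15 to 30 µm the interval held 1 (1.14, 0.871 to 1.49), and further in the share was higher in mEFA: 1.39 (1.12 to 1.74) at 30 to 50 µm, 1.74 (1.496 to 2.03) at 50 to 100 µm and 1.495 (1.25 to 1.79) at 100 to 200 µm. At 50 to 100 µm the shares were 6.40% in mEFA and 3.67% in mECA. Mature CD8-1 also lay below 1 at the edge (0.612), was 0.993 at 15 to 30 µm and lay above 1 further in, with 1.41 at 50 to 100 µm. Mature CD4-2 was lower in mEFA at the edge too (0.787, 0.683 to 0.906). Further in it stayed between 0.967 and 1.12, with intervals that held 1. Mature CD8-2 ran from 0.674 (0.589 to 0.772) at the edge to 1.07 (0.961 to 1.19) at 100 to 200 µm. The lower share at the edge was thus common to the mature labels. Median depths of the 2 kinds of area were 50.0 µm in mEFA and 44.7 µm in mECA.

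**Figure D5:**
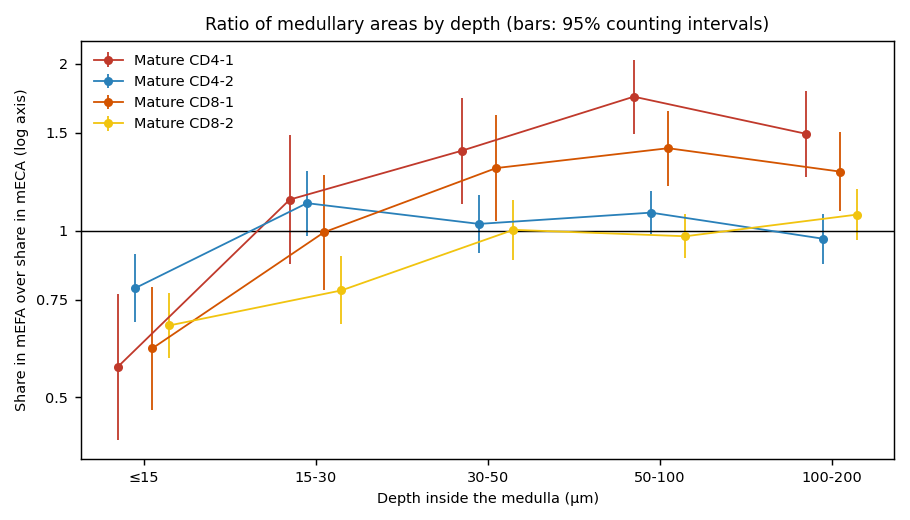
Ratio of the share of thymocyte bins in mEFA to that in mECA (vertical axis, log scale) for 4 mature labels in 5 bands of depth inside the medulla in µm (horizontal axis), with 95% counting intervals. Mature CD4-1, like the other labels, lay below 1 within 15 µm of the edge (0.567). It lay above 1 from 30 µm inwards, with 1.74 at 50 to 100 µm.

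The medulla of the section fell into 20 separate areas with at least 100 thymocyte bins of each kind, the largest holding 22.4% of medullary thymocyte bins. The Mature CD4-1 share was higher in mEFA in 14 of the 20, against 12 for Mature CD8-1, 9 for Mature CD4-2 and 3 for Mature CD8-2. Across these areas its share ran from 0.588 to 9.23% in mEFA (median 4.22%) and from 0.714 to 5.32% in mECA (median 3.07%). The ranges of the 2 kinds of area overlapped widely.

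Near some stromal labels the Mature CD4-1 share was higher. Within 30 µm of medullary bins labelled vEC, an endothelial label, it was 5.38% of thymocyte bins, against 3.73% elsewhere in the medulla, a ratio of 1.44 (1.22 to 1.70). The ratio was 1.42 for Mature CD8-1, 1.21 for Mature CD4-2 and 1.00 for Mature CD8-2. The share of thymocyte bins lying in mEFA was 53.2% near vEC and 35.6% elsewhere, with median depths of 50.0 and 44.7 µm, and the part of area and depth in the ratio was not tested. The endothelial labels capEC (29 bins) and aEC (38 bins) stood at 1.04 (0.6996 to 1.54) and 1.11 (0.783 to 1.59), wide intervals that held both 1 and the value near vEC. TMC4 stood at 1.29 (1.10 to 1.51), where Mature CD4-2 had 1.38, Mature CD8-1 had 1.22 and Mature CD8-2 had 1.01. vSMC_PC stood at 1.27 (1.01 to 1.59), where these labels had 1.22, 0.982 and 0.987. Mature CD4-2 had 1.35 near capEC and 1.33 near aEC. Median depths were 60.8 µm near TMC4 and 58.3 µm near vSMC_PC, against 44.7 µm elsewhere, and the part of depth was not tested. Near the medullary epithelial label mTEC2 the Mature CD4-1 share was lower (0.833, 0.762 to 0.911), where 21.2% of thymocyte bins lay in mEFA against 58.0% elsewhere.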

How the data were processed

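Single-cell RNA sequencing of rat thymocytes gave UMI counts per gene and barcode, deposited by the authors as whole numbers. The submitters' processing notes name Cell Ranger 8.0.0, Seurat 5.3.0 and the build mRatBN7.2. The cell labels, the UMI counts per cell and the percent of mitochondrial UMIs stand in a per-cell table from the authors. That percent equalled the share of the 2 mitochondrial ribosomal RNA genes in 8546 of 8546 cells (tolerance 0.001). For the section, the authors deposited UMI counts, chip coordinates, regions and RCTD weights (fractions of a bin given to a label) per bin. The deposited score columns for medullary cells are the authors' own, with gene lists not given in the sources used here. No doublet caller was run, and whether doublets had been removed is not given in the sources used here.

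UMIs were summed per label and divided by the label's total (CPM, with exact Poisson intervals). Ratios of CPM carry exact conditional binomial intervals, ratios of section shares log-normal ones, all at 95%. Genes entered with at least 50 UMIs in both groups together, and for counts and ranks a group with fewer than 3 UMIs of a gene was set at 3. Single ratios use this floor only at 0 UMIs. Thinning drew 1000 UMIs per cell. Named genes were all members of 21 lists (230 genes, with 1 gene not reported here), the 10 widest ratios per comparison and direction among genes seen in at least 20% of the higher group, and 15 leading genes. Members and lists were chosen with earlier results of these data known. The 3 comparisons share the Mature CD4-1 cells, so no overlap between them was computed. Of 34034 feature names 29433 matched a RefSeq symbol. The section's bins measure 20 chip units at a nominal 0.5 µm, and distance was taken to the nearest position outside the medulla. Python 3.11.15, NumPy 2.4.6, SciPy 1.17.1 and pandas 2.3.3 were used. The summaries were run on simulated independent Poisson counts, the model behind the intervals. That run checks the computation only and does not cover UMIs gathered in few cells.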

Additional observations from a re-analysis of the deposited data

How the results depend on the processing

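Over 81 results and 824 alternatives, directions held except those named here, and the size of counts followed the thresholds by construction. Of 71 gene ratios, 30 moved by over 1.5 times under thinning and 31 in another alternative. Ratios with intervals around 1 also crossed it. Cd79a to Mature CD4-2 went from 0.889 to 1.29 without cells with 2 or more B cell, myeloid or stromal genes, and to 1.31 thinned. Foxo1 to the Mature CD8 cells went from 1.07 to 0.984 without Rag1, Dntt or Ptcra cells, and to 0.877 against Mature CD8-1 alone. With at least 20 UMIs in place of 50, the genes 2-fold higher and lower numbered 267 and 958 against the Immature CD4 cells, 147 and 362 against the Mature CD8 cells, and 69 and 462 against Mature CD4-2. With 200 UMIs they were 47 and 108, 5 and 12, and 0 and 27. At 1.5-fold they were 348 and 1531, 257 and 470, and 104 and 748. Thinned to 1000 UMIs per cell, which leaves fewer genes, they were 34 and 114, 3 and 7, and 1 and 11. Thinning gave S1pr1 ratios of 28.3 (29 against 2 UMIs; 7.15 to 244.6), 1.35 and 1.17 to the 3 groups, 12.6 for Klf2 to the Immature CD4 cells, and 0.961 and 2.68 for Cd4 to the Immature CD4 and Mature CD8 cells. Median scaling gave 260 and 210 genes against the Immature CD4 cells with Cd4 at 0.886, and 24 higher against Mature CD4-2. Totals without mitochondrial and ribosomal protein genes gave 282 lower than in the Immature CD4 cells and 18 higher than in Mature CD4-2. Without cells holding 2 or more B cell, myeloid or stromal genes, 23 genes were higher than in the Mature CD8 cells, and S1pr1 stood at 18.2 to the Immature CD4 cells. S1pr1 stood at 13.4 there without the cells at or above the 99th percentile of UMIs. The cause of these shifts was not tested.

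The following alternatives were chosen after seeing the data. Without cells with Rag1, Dntt or Ptcra, S1pr1 stood at 13.7 to the Immature CD4 cells, and against Mature CD4-2 there were 40 lower genes, Klf2 at 1.16, and a turn of direction for Cd4 (1.01), Thy1 (8 against 1 UMIs, 6.13-fold higher, 0.822 to 272.2) and Adam12 (7 against 0 UMIs, at least 1.79-fold higher against 3 UMIs in the group). Against Immature CD4-1 alone S1pr1, Klf2 and Cd4 stood at 84.2 (2 UMIs in the lower group; 23.0 to 699.7), 12.3 and 0.906, and against Immature CD4-2 alone at 4.97, 5.03 and 0.595 with 245 lower genes. Against Mature CD8-1 alone S1pr1 stood at 1.36, Cd4 at 3.25, and 56 genes were lower.

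The label was 10.3% of cells labelled past DP-sig. In the section its medulla-to-cortex ratio was 7.80 in segmented cell bins, 16.2 in bins at or above the median UMIs of their region, 27.9 in bins given 1 type, 15.3 with the label in any place, 23.8 for medullary bins over 50 µm deep and 63.0 with confident labels (added later). The mEFA-to-mECA ratio was 1.504 in the deeper-sequenced bins and 1.68 over 50 µm deep, and that of its share among mature CD4 labels 1.41 over 50 µm deep and 1.48 with confident labels. Over all settings the former ran from 1.25 to 1.68 and the latter from 1.17 to 1.48, so some alternatives lay below the main count. Restricting cells to labels from clusters alone left no Mature CD4-1 cell and was not run. No paired analysis was possible because only 1 thymocyte library and 1 section were used. With a median of 1 UMI of S1pr1 and of Cd4 per Mature CD4-1 cell, single cells could not be called negative.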
